A study of Mus musculus with 6 samples.

Results

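Integrins and the proteins of the focal adhesion were read out as RNA in Bcat1-KO and control cells of mGB2, a mouse glioblastoma line. The members were the rows of the deposited gene tables whose symbol is that of an integrin alpha or beta subunit (28 rows), together with 17 named focal adhesion genes, and they made up 45 of the 49585 rows. The 45 rows carry 44 symbols, since Itgam is listed under 2 gene identifiers. RNA came from 3 Bcat1-KO samples and 3 control samples, the latter called NT in the series design. Both groups were untreated and had been grown attached to a plate coated with extracellular matrix, in glioblastoma stem cell medium with N2, B27, EGF and FGF, until confluent. The labels call mGB2 a glioblastoma stem cell. They give neither how Bcat1 was targeted nor whether the knockout is 1 clone or a pool, and they do not say whether replicates were separate cultures, so a p-value here sets a difference against the spread of these 3 and 3 libraries, a spread that may be technical.

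Integrins are transmembrane receptors built from 1 alpha and 1 beta chain. The pair decides which matrix protein is bound, and the cytoplasmic tail of the beta chain recruits talin and kindlin, which switch the receptor on. A complex of Ilk, Pinch and parvin, the kinase Fak (Ptk2) with its scaffolds paxillin and p130Cas, and the actin-binding proteins vinculin, zyxin and tensin then assemble at the site and tie it to the cytoskeleton. In the brain and in glioblastoma, integrins hold neural stem cells and tumour cells to laminin and fibronectin and serve in migration.

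The libraries held 29543157 to 37800648 reads counted on the strand of the gene, and members took between 0.282% and 0.294% of them in the knockout and between 0.329% and 0.347% in the control. Levels are given as CPM, the count scaled to the size of the library by the TMM method, with mean ± SD over 3 libraries. A log2 difference is always knockout minus control on that scale. Levels of different genes are compared only as TPM, which also corrects for gene length. The targeted gene Bcat1 stood at 155, 176 and 173 CPM in knockout replicates 1, 2 and 3 and at 214, 223 and 232 CPM in the control replicates, so its RNA was lower but present in the libraries labelled Bcat1-KO. A change in these bulk samples can come from fewer cells of a type or from less RNA per cell, which cannot be told apart. The neural stem and glioma markers Nes, Sox2, Olig2, Vim, Egfr, Pdgfra, Fabp7 and Msi1 were present in every library, with a summed level of 1698 to 1766 CPM in the control and 2397 to 2622 CPM in the knockout, where Vim, Sox2, Fabp7 and Olig2 were higher. The call of Vim was lost once the median of up to 50 neighbouring genes was removed (log2 difference 0.29 before and 0.10 after, edgeR adjusted p = 0.419). Nes, Pdgfra, Msi1 and Egfr did not pass, so the list did not rise as a whole. Egfr was lower with the local median removed (log2 difference -0.23 before and -0.62 after, edgeR adjusted p = 0.0003). Replicate 1 stood apart in each group: the chi-square per gene between libraries was 28.9 and 30.5 for its pairs in the knockout and 11.7 for replicates 2 and 3, and 11.8 and 11.2 against 3.78 in the control.

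Of the 45 members, 35 had enough counts to be tested. The knockout had less RNA for the fibronectin receptor chain Itga5, the vitronectin receptor chain Itgb5, vinculin and zyxin, by 2.25-fold to 3.69-fold. It had more for Itga4 and Itgb8, by 3.57-fold and 3.18-fold. The kinase and adaptor genes Ptk2, Pxn, Ilk and Lims1 differed by less than 0.12 on the log2 scale. Of the same groups of proteins, the scaffold gene Bcar1 was lower (-0.83) and the parvin gene Parvb higher (0.59). In edgeR's quasi-likelihood test over all genes, 19 members were lower and 6 higher at a Benjamini-Hochberg adjusted p under 0.05, and 10 did not pass. The test called 30.3% of all 14020 tested genes lower and 32% higher, so calls in themselves were frequent. At least 2-fold lower were 12 members, where 9.43% of all genes were, and at least 2-fold higher were 2, where 9.76% of all genes were. The groups did not overlap for 27 of the 35, against 67.7% of all genes. The median log2 fold change was -0.58 over the members tested and 0.01 over all genes. Low members such as Itga2, Itga3, Itga8, Itgal, Itgb2 and Ptk2b were testable through their control level alone. These counts therefore describe the tested members and not the whole set. Among the 21 members with a mean of at least 10 TPM, 9 were lower and 4 higher, and their median was -0.07.

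**Figure D1:**
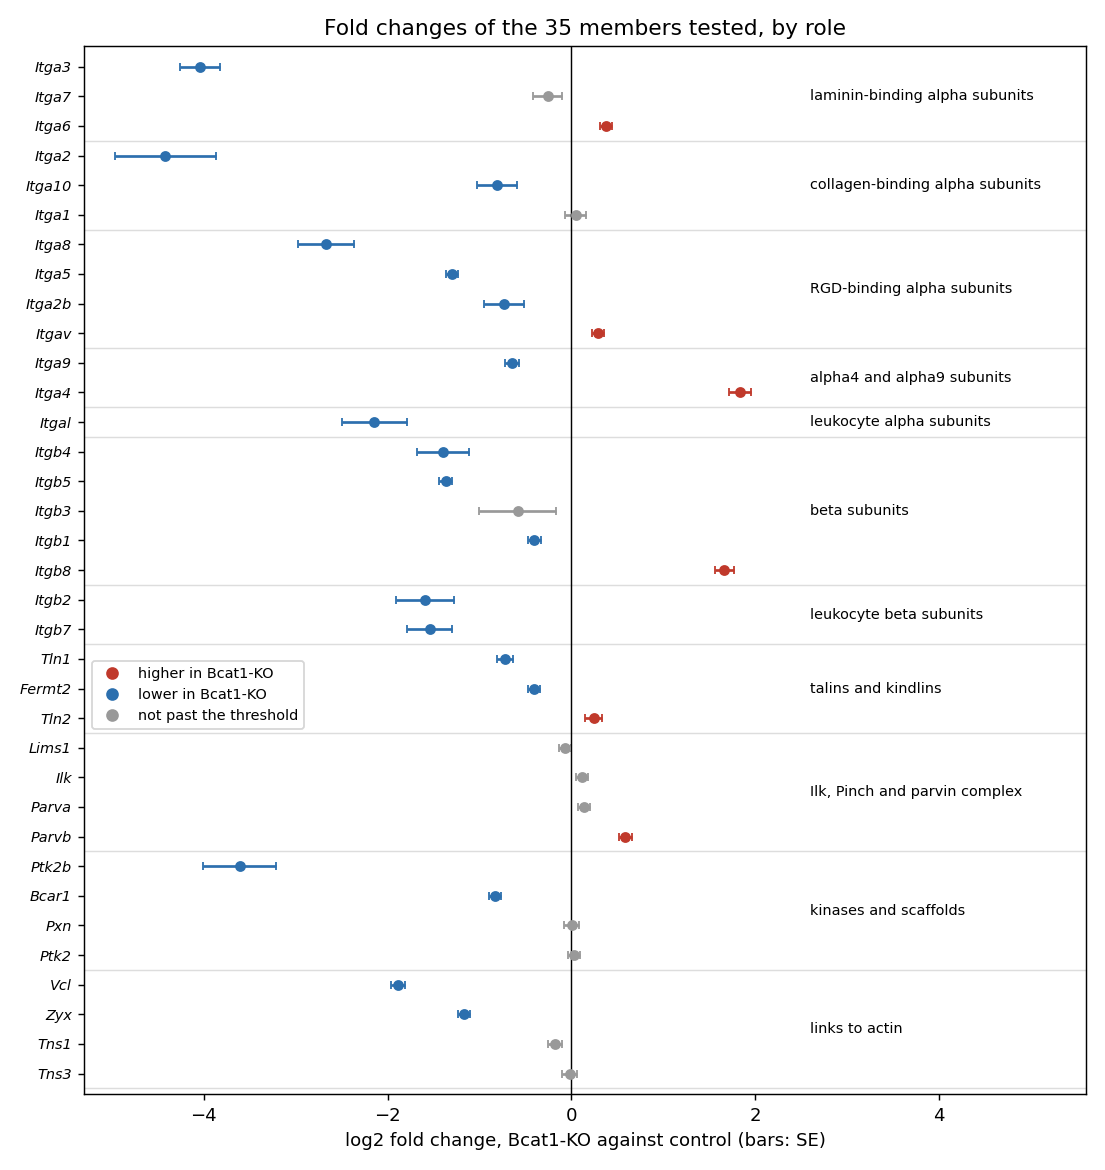
Log2 fold change of each of the 35 tested members, Bcat1-KO against control, with its standard error, grouped by role. Blue points were lower, red points higher and grey points not past the adjusted threshold. Itga4 (1.84) and Itgb8 (1.67) stand to the right, whereas Vcl, Itgb5, Itga5 and Zyx lie between -1.89 and -1.17.

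Among the alpha chains that recognise the RGD motif of fibronectin, vitronectin and nephronectin, 3 fell and 1 rose. Itga5, which pairs with beta1 as the main fibronectin receptor (ENSMUSG00000000555.7, chromosome 15 from 103344286 to 103366763, mm10), held 50.3, 44.9 and 48.9 CPM in the knockout replicates and 115, 119.8 and 120.0 CPM in the control replicates. The knockout libraries lay close together and all were below every control library. The control mean was 118 ± 2.86 CPM and the knockout mean 48.0 ± 2.78 CPM, and the fall was 2.46-fold (log2 difference -1.30, SE 0.07, edgeR adjusted p = 9.84e-09). Itgav, the chain shared by the receptors with beta3, beta5, beta6 and beta8, went the other way, with 114, 102 and 112 CPM against 88.9, 84.6 and 94.7 CPM. Its groups did not overlap, but the rise was small (log2 difference 0.29, SE 0.07, edgeR adjusted p = 0.00324). It was 0.02 once the median of up to 50 neighbouring genes was removed (edgeR adjusted p = 0.8). Itga8, the nephronectin receptor chain, was low in both groups, at 0.222, 0.156 and 0.138 CPM in the knockout and 1.21, 1.02 and 1.10 CPM in the control (log2 difference -2.67, SE 0.30, edgeR adjusted p = 1.16e-05). Itga2b, the platelet fibrinogen receptor chain, was also low, with 1.69, 0.988 and 1.49 CPM against 2.54, 2.29 and 2.07 CPM (log2 difference -0.73, SE 0.22, edgeR adjusted p = 0.013), and its call was lost without control replicate 1 (-0.67, adjusted p = 0.0526).

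Laminin receptors rest on Itga3, Itga6 and Itga7. Itga6, a chain used as a surface marker of neural and glioma stem cells (ENSMUSG00000027111.15, chromosome 2 from 71745616 to 71858416, mm10), had the highest mean TPM of the alpha chains over the 6 libraries, with 247, 254 and 259 CPM in the knockout and 188, 195 and 203 CPM in the control. Every knockout library was above every control library, by a modest margin (1.30-fold, log2 difference 0.38, SE 0.06, edgeR adjusted p = 0.000306). With the local median removed, the Itga6 value was 0.15 and no longer passed (adjusted p = 0.0606). Itga3 showed a larger change in the other direction at a low level, at 0.305, 0.390 and 0.220 CPM in knockout libraries and 5.31, 5.001 and 5.03 CPM in control libraries (log2 difference -4.05, SE 0.22, edgeR adjusted p = 1.62e-08). In counts, 34 Itga3 reads over the knockout group stood against 479 over the control. Itga3 was testable through its control level alone. Itga7, known from muscle, held 5.21, 4.81 and 3.69 against 5.66, 4.94 and 5.78 CPM, and the groups overlapped (log2 difference -0.26, SE 0.16, edgeR adjusted p = 0.174). Without knockout replicate 1 it passed as lower, with a log2 fold change of -0.38 (adjusted p = 0.0369).

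Collagen-binding chains were lower or did not pass. Itga1, the most abundant of them, held 25.5, 20.2 and 21.8 CPM in the knockout and 22.8, 18.6 and 23.6 CPM in the control, values that overlapped (log2 difference 0.05, SE 0.11, edgeR adjusted p = 0.714). Pelo lies inside Itga1 on the same strand, so the division of reads between the pair is uncertain. Itga10, a cartilage collagen receptor chain, had 1.91, 3.14 and 2.48 against 5.44, 4.19 and 3.58 CPM (log2 difference -0.81, SE 0.21, edgeR adjusted p = 0.00599). Itga2 had 3 reads over the knockout group and 61 over the control, a ratio of 24.1 with an exact 95% interval of 7.86 to 119.9 that covers counting error only. Itga11 had 0 and 4 reads and was not tested.

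Itga4 and Itga9 form a related pair of chains that bind Vcam1, osteopontin and the alternatively spliced part of fibronectin, and they moved apart. Itga4 (ENSMUSG00000027009.18, chromosome 2 from 79255426 to 79333123, mm10) held 55.8, 73.6 and 79.6 CPM in the knockout replicates and 20.6, 18.4 and 19.5 CPM in the control replicates. Knockout replicate 1 was the lowest of its group and still well above the control libraries, which lay close together. The rise, 19.5 ± 1.08 CPM in the control to 69.7 ± 12.3 in the knockout (log2 difference 1.84, SE 0.12, edgeR adjusted p = 8.60e-08), kept its direction and call in each of the 17 alternatives, between 1.55 and 1.95. Itga9 held 22.7, 23.8 and 26.5 against 37.0, 37.2 and 39.7 CPM, a fall of 1.56-fold with no overlap (log2 difference -0.64, SE 0.08, edgeR adjusted p = 2.44e-05).

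**Figure D2:**
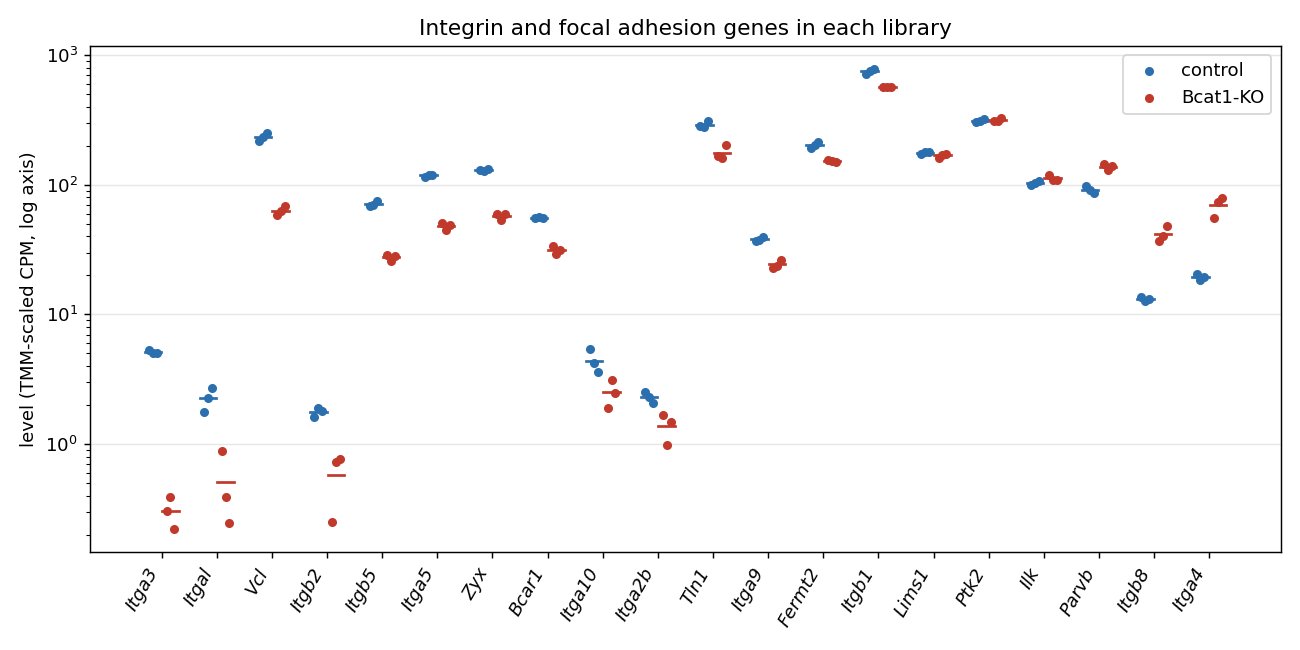
Level in each library (TMM-scaled CPM, log axis) of 20 members, ordered by fold change, with control libraries in blue, knockout libraries in red and a bar at each group mean. The control libraries of Itga5 sit between 115 and 120.02 CPM and its knockout libraries between 44.9 and 50.3, whereas those of Ptk2 overlap between 304 and 329 CPM.

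Beta chains changed in both directions. Itgb1, the partner of most alpha chains (ENSMUSG00000025809.15, chromosome 8 from 128685654 to 128733200, mm10), had the highest TPM of all members, with 456 ± 6.51 TPM in the knockout and 580.3 ± 25.4 TPM in the control. Its libraries held 572, 568 and 565 CPM in the knockout and 714, 754 and 783 CPM in the control, so the groups did not overlap (log2 difference -0.40, SE 0.07, edgeR adjusted p = 0.000367). The tested genes around Itgb1 had a median log2 fold change of -0.48. With that median removed the value of Itgb1 was 0.08 (edgeR adjusted p = 0.35), so the direction turned and the call was lost. The window held up to 25 tested genes on each side, and fewer where a chromosome ended. How many lay on each side of Itgb1 was not recorded.

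Itgb5, the beta chain of a vitronectin receptor (ENSMUSG00000022817.14, chromosome 16 from 33829665 to 33949153, mm10), held 28.6, 25.7 and 28.3 CPM in the knockout and 69.2, 69.3 and 74.5 CPM in the control. The knockout libraries lay close together and far below every control library. The fall was 2.58-fold (log2 difference -1.37, SE 0.07, edgeR adjusted p = 1.25e-08), and -1.49 with the local median removed. Itgb8, whose receptor with alpha v binds latent TGF-beta and activates it (ENSMUSG00000025321.14, chromosome 12 from 119158022 to 119238802, mm10), held 36.8, 39.9 and 48.3 CPM in the knockout and 13.6, 12.7 and 13.0 CPM in the control. The control libraries were nearly equal, and the lowest knockout library was well over them. The rise was 3.18-fold (log2 difference 1.67, SE 0.10, edgeR adjusted p = 6.46e-08), and 1.90 with the local median removed. In TPM, Itgb5 exceeded Itgb8 by ratios of 16.7, 18.0 and 18.8 in the control libraries and 2.56, 2.11 and 1.93 in the knockout libraries.

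The remaining beta chains were near the limit of detection. Itgb4, the laminin receptor chain of epithelial hemidesmosomes, had 0.693, 0.442 and 0.330 against 1.24, 1.39 and 1.24 CPM (log2 difference -1.40, SE 0.28, edgeR adjusted p = 0.00102). A gene on the opposite strand overlaps Itgb4, and forward-strand reads there numbered 77 in the knockout and 110 in the control, beside 54 and 121 of its own. Itgb3 held 0.582, 0.182 and 0.660 against 0.509, 0.633 and 0.998 CPM, and the groups overlapped (log2 difference -0.58, SE 0.42, edgeR adjusted p = 0.245). Itgb6 had 1 read in all 6 libraries.

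The make-up of the integrin transcripts differed with these changes. Of the summed alpha chain TPM, Itga5 took 37.2, 38.7 and 37.0% in the control replicates and 18.0, 16.4 and 17.0% in the knockout replicates. Itga6 took 29.9, 31.0 and 30.8% in the control and 43.6, 45.7 and 44.4% in the knockout. The order of the leading chains thus changed from Itga5, Itga6, Itgav in every control library to Itga6 first in every knockout library, with Itga5 and Itgav next and close together. Itgav went from 11.8 ± 0.410% to 16.1 ± 0.755%, and Itga4 from 1.97 ± 0.126% to 7.90 ± 1.33% (mean ± SD, n = 3). Below these, Itga9 went from 6.98 ± 0.0750% to 5.01 ± 0.307% and Itga1 from 5.12 ± 0.565% to 5.95 ± 0.719%, and the values of Itga1 overlapped.

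Of the summed beta chain TPM, Itgb1 took 88.6 ± 0.221% in the control and 91.8 ± 0.531% in the knockout. Itgb5 went from 10.2 ± 0.245% to 5.40 ± 0.298% and Itgb8 from 0.572 ± 0.0425% to 2.48 ± 0.356%. The sums were 223 ± 6.82 and 207 ± 6.17 TPM for the alpha chains and 655 ± 28.2 and 497 ± 6.99 TPM for the beta chains, each lower in every knockout library. These shares are given as a description, with no test.

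**Figure D3:**
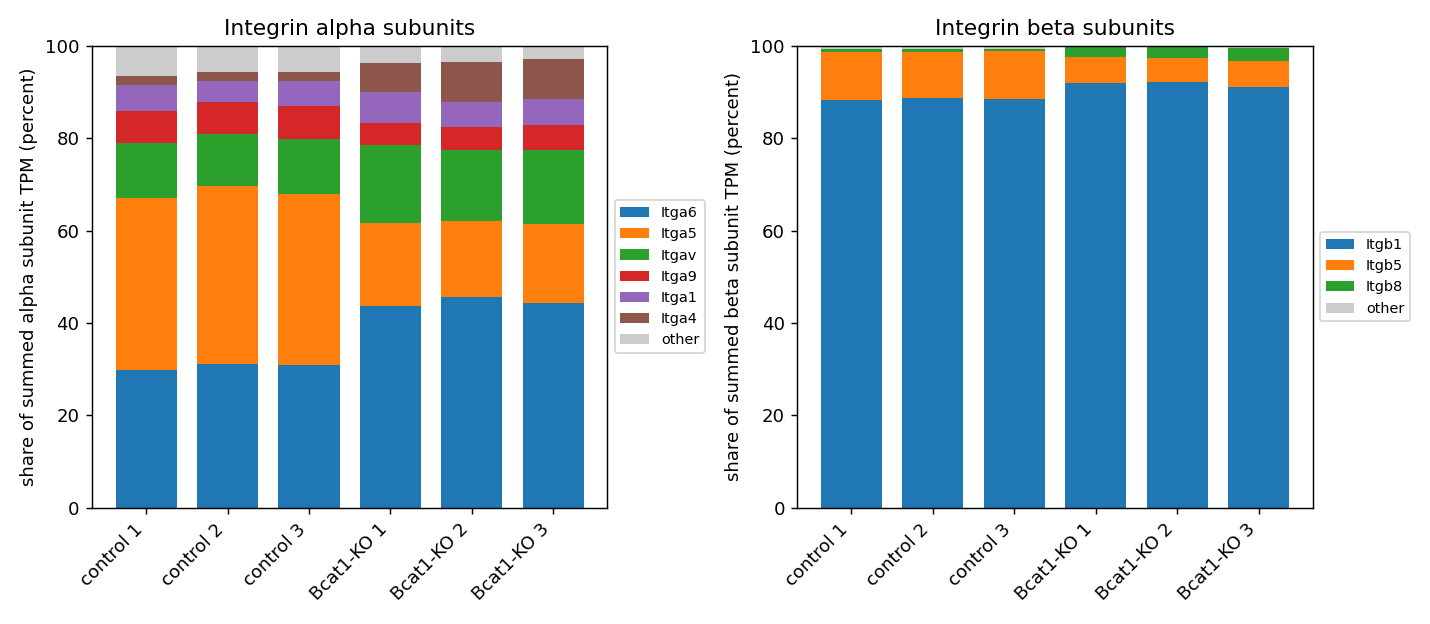
Share of the summed TPM of integrin alpha chains (left) and beta chains (right) that each chain took in each of the 6 libraries, in percent. Itga5 takes 37.0% to 38.7% of the alpha sum in the control libraries and 16.4% to 18.0% in the knockout libraries, and Itgb1 takes 88.4% to 92.2% of the beta sum.

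Chains known from leukocytes were scarce. Itgal, the alpha chain of the lymphocyte receptor for Icam1, held 0.886, 0.390 and 0.248 against 1.78, 2.26 and 2.72 CPM (log2 difference -2.14, SE 0.35, edgeR adjusted p = 0.000254). Its partner chain Itgb2 held 0.249, 0.728 and 0.770 against 1.62, 1.90 and 1.79 CPM (log2 difference -1.59, SE 0.32, edgeR adjusted p = 0.000945), and Itgb7 0.471, 0.442 and 0.440 against 1.14, 1.57 and 1.24 CPM (log2 difference -1.54, SE 0.25, edgeR adjusted p = 0.000198). In all 3 genes no knockout library reached a control library, but Itgal and Itgb2 were testable through their control level alone. With the local median removed Itgb2 was -1.05 (adjusted p = 0.0143). Both Itgam rows and Itgb2l had 0 reads in all 6 libraries, where 3 reads in a library correspond to 0.0794 to 0.102 CPM, while Itgad, Itgax and Itgae had 1, 5 and 26 reads in all. Of the Itgae reads, 22 were in the knockout and 4 in the control, the other direction from Itgal, Itgb2 and Itgb7. Its values did not overlap, at 0.249, 0.208 and 0.138 against 0.0954, 0.0301 and 0 CPM, but the main test left it out for its low counts. The leukocyte markers Ptprc, Tyrobp, Aif1 and Lyz2 and the T cell markers Cd3d, Cd3e, Cd3g and Cd2 stood at or below 0.0554 CPM in every library, and C1qa at 0. Of the same lists, Csf1r reached 0.0831 CPM, and Fcer1g held 0.471, 0.520 and 0.413 CPM in the knockout libraries and 0.413, 0.241 and 0.310 CPM in the control libraries (log2 difference 0.54, SE 0.32, edgeR adjusted p = 0.165). The summed level of the 8 macrophage and microglia markers, mostly Cd68, was 2.89 to 4.67 CPM in the control and 3.05 to 4.29 CPM in the knockout.

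Talins and kindlins, which bind the beta chain tail and activate the receptor, fell for 2 of 3 tested genes. Tln1 held 167, 161 and 202 CPM in the knockout and 283, 278 and 313 CPM in the control, with knockout replicate 3 the highest of its group and still under the control libraries. The fall was 1.65-fold (log2 difference -0.72, SE 0.09, edgeR adjusted p = 3.05e-05), and -0.46 with the local median removed (adjusted p = 0.00097). Tln2, the form of heart and brain, held 42.5, 42.7 and 54.8 against 38.6, 39.6 and 40.1 CPM. It passed narrowly as higher (log2 difference 0.24, SE 0.10, edgeR adjusted p = 0.0437), with the largest value again in knockout replicate 3. Without that replicate its log2 fold change was 0.10 (adjusted p = 0.259), and leaving out any 1 control replicate also ended its call (adjusted p = 0.0896 to 0.138). With the local median removed it was -0.09. In TPM, Tln1 exceeded Tln2 by ratios of 13.8, 13.1 and 14.6 in the control and 7.37, 7.06 and 6.91 in the knockout.

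Fermt2, the widely expressed kindlin, held 154, 151 and 151 CPM in the knockout and 191, 202 and 213 CPM in the control. The knockout libraries were nearly equal and below the control libraries. The fall was 1.33-fold (log2 difference -0.41, SE 0.06, edgeR adjusted p = 0.00018) and -0.20 with the local median removed (adjusted p = 0.02). Fermt1, the epithelial kindlin, had 0 reads in every library.

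In the complex of Ilk, Pinch and parvin, which links beta chains to actin, 1 of 4 genes passed. Ilk, the pseudokinase at its centre, held 119, 108 and 109 against 100.1, 104 and 106 CPM (log2 difference 0.12, SE 0.06, edgeR adjusted p = 0.137). Its values did not overlap, but the margin was small, and it passed as higher on log2(TPM + 1) (0.17, limma adjusted p = 0.0229). Lims1, which encodes Pinch, held 162, 171 and 174 against 173, 178 and 179.6 CPM and overlapped (log2 difference -0.07, SE 0.06, edgeR adjusted p = 0.372). Of the parvins, Parvb held 144, 131 and 139.6 CPM in the knockout and 97.9, 91.0 and 86.7 CPM in the control, a rise of 1.503-fold (log2 difference 0.59, SE 0.07, edgeR adjusted p = 1.65e-05). Parva held 75.2, 76.3 and 79.3 against 64.6, 72.5 and 72.1 CPM (log2 difference 0.14, SE 0.07, edgeR adjusted p = 0.0843) and passed on log2(TPM + 0.1) (0.20, limma adjusted p = 0.0492). Parvb was the more abundant parvin in TPM, by ratios to Parva of 3.49, 2.89 and 2.77 in the control and 4.40, 3.95 and 4.05 in the knockout.

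Of the 4 kinase and scaffold genes tested, Bcar1 and Ptk2b fell and Ptk2 and Pxn did not pass. Ptk2, which encodes Fak (ENSMUSG00000022607.14, chromosome 15 from 73205105 to 73423191, mm10), held 313, 310.2 and 329 CPM in the knockout and 304, 309 and 319.6 CPM in the control, values that overlapped (log2 difference 0.03, SE 0.06, edgeR adjusted p = 0.717). Pxn, the scaffold paxillin, also overlapped, with 69.7, 69.8 and 83.2 against 76.8, 70.2 and 74.9 CPM (log2 difference 0.00, SE 0.08, edgeR adjusted p = 0.961). Bcar1, the p130Cas scaffold that Fak and Src phosphorylate, fell 1.78-fold, from 55.5, 56.3 and 55.6 CPM in the control replicates to 33.5, 29.5 and 31.2 CPM in the knockout replicates. The control libraries were nearly equal and above the knockout libraries (log2 difference -0.83, SE 0.07, edgeR adjusted p = 8.49e-07). With the local median removed the Bcar1 value was -0.48 (adjusted p = 0.000103). Ptk2b, the Fak relative Pyk2, had 7 reads over the knockout group and 76 over the control (log2 difference -3.61, SE 0.40, edgeR adjusted p = 9.80e-06). Tgfb1i1, the paxillin relative Hic-5, had 12 and 14 reads and was not tested.

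Of the 4 actin links, Vcl and Zyx fell and the tensins did not pass. Vcl, which encodes vinculin, the protein that couples talin to actin under load (ENSMUSG00000021823.9, chromosome 14 from 20929433 to 21033673, mm10), held 58.6, 62.5 and 68.5 CPM in the knockout replicates and 219, 232 and 250.2 CPM in the control replicates. The groups lay far apart, with little spread within either. The fall was 3.69-fold (log2 difference -1.89, SE 0.08, edgeR adjusted p = 1.91e-09), between -1.96 and -1.63 over the alternatives. Zyx, which encodes zyxin, a LIM protein of stress fibres and mature adhesions (ENSMUSG00000029860.16, chromosome 6 from 42349630 to 42360213, mm10), held 60.1, 53.7 and 59.6 against 129.5, 128 and 132 CPM. The control libraries were nearly equal and stood far above the knockout libraries (log2 difference -1.17, SE 0.07, edgeR adjusted p = 2.38e-08). For the tensins, which bind beta chain tails and actin, the groups lay close. Tns1 held 117, 112 and 130.3 against 138, 126 and 143 CPM (log2 difference -0.18, SE 0.08, edgeR adjusted p = 0.0611) and Tns3 156, 125 and 133 against 135, 139 and 144 CPM (log2 difference -0.01, SE 0.08, edgeR adjusted p = 0.889), and the groups overlapped for both. With the local median removed Tns3 was lower (-0.40, adjusted p = 0.00128), and Tns1 was lower with relative log expression or upper quartile scaling, without the filter on low counts, and without knockout replicate 3 or control replicate 2, at log2 fold changes of -0.26 to -0.19. Relative to Vcl, the TPM of Ptk2 stood at ratios of 1.46, 1.40 and 1.34 in the control and 5.59, 5.20 and 5.03 in the knockout.

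Promoter sequence from RefSeq (GRCm38.p6, 250 bases before to 50 after the start of transcription) was at hand for 30 of the 44 member symbols, in 36 windows. Vcl is a textbook target of serum response factor, which binds the CArG box. Windows were searched on both strands for the CArG box, for the TEAD motif GGAATG and for the AP-1 motif TGANTCA, which do not overlap each other in the windows shown. A CArG box lay in the windows of Vcl, Fermt2 and Itgb6, against 1.63% of all 32851 windows. A TEAD motif lay in those of Vcl, Itgb1 and Itga10, against 14.7% of all windows, and an AP-1 motif in those of Zyx, Itga3, Itga9 and Itgax, against 7.81%. Of the 36 member windows, 3 held a CArG box, 3 a TEAD motif and 4 an AP-1 motif, and Itgb6 and Itgax were not tested for a change. The windows of Vcl, Fermt2 and Zyx are shown as members that fell and hold a motif, and that of Itgb8 as a member that rose and holds none of them. These windows were picked as examples, and whether a motif goes with a fall was not tested. Capitals in the sequences mark the matches, at 227 (CArG) and 143 (TEAD) bases before the start in Vcl, 204 (CArG) in Fermt2 and 121 (AP-1) in Zyx. A match describes the letters alone, and these motifs were chosen with the fold changes known.
Vcl, chr14:20929148-20929447, plus strand: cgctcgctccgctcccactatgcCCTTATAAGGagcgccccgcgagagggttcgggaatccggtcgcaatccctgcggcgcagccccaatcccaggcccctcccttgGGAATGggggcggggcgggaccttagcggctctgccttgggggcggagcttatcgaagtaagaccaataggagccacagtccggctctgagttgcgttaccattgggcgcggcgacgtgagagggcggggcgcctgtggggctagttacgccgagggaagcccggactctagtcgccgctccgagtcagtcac
Fermt2, chr14:45530016-45530315, minus strand: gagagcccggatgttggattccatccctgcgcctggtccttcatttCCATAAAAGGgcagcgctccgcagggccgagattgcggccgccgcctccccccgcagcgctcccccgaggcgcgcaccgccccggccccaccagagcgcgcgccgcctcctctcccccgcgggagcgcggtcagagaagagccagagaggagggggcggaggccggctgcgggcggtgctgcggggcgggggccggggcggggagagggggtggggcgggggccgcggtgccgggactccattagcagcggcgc
Zyx, chr6:42349578-42349877, plus strand: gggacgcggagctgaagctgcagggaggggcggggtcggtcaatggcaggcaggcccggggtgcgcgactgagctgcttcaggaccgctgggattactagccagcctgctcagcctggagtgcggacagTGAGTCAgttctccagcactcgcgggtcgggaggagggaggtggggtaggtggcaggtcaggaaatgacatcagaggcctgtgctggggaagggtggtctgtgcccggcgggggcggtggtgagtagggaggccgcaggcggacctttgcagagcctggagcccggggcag
Itgb8, chr12:119238227-119238526, minus strand: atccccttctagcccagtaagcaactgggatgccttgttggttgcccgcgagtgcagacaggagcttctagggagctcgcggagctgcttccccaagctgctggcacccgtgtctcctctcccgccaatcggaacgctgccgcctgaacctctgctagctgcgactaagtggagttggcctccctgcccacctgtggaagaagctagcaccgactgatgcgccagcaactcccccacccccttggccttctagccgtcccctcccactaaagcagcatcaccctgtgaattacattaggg

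Markers of other cell types were read beside these results. The 7 markers of fibroblasts and mural cells, cells rich in focal adhesions, summed to 24.6 to 26.5 CPM in the control and 4.49 to 6.07 CPM in the knockout. Of these, Col1a1, Pdgfrb and Acta2 were lower in the knockout, 4 were not tested, and the list did not move as a whole. Dcn was low but higher in every knockout library, at 0.471, 0.468 and 0.275 CPM against 0.0954, 0.0603 and 0.0688 CPM (45 against 7 reads), while Lum had 6 against 2 reads, Col1a2 8 against 5 and Rgs5 0 against 5. Their part in the falls of Vcl, Zyx, Itga5 and Itgb5 was not tested. The 6 endothelial markers summed to 0.826 to 0.994 CPM in the control and 0.249 to 0.780 CPM in the knockout. Of these, Tek was lower on few reads (14 against 46, log2 difference -1.925, SE 0.49, edgeR adjusted p = 0.0048). Pecam1 did not pass and 4 were not tested. The 4 platelet markers summed to at most 0.416 CPM and the 4 epithelial markers to at most 0.211 CPM.

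Beyond the members, 110 further genes of integrin function were chosen by role, but with earlier results of these data known. The counts for these lists are therefore a description and not independent of the data. Of the 110, 97 were tested, and 33 were higher and 36 lower. These shares, 34.0% and 37.1%, lay near the 32% and 30.3% of all genes. Other proteins of the adhesion plaque were lower for 18 of 26 tested (69.2%, against 30.3% of all genes) and higher for 5 (19.2%, against 32%), with a median log2 fold change of -0.57 where that of all genes was 0.01. Fblim1, which encodes migfilin, went from 2.31 ± 0.396 to 0.172 ± 0.0668 CPM and Sorbs2, an adaptor that binds vinculin, from 3.94 ± 0.371 to 1.07 ± 0.279 CPM. Kank1, whose product rings the adhesion by binding talin, rose from 1.45 ± 0.213 to 25.2 ± 3.57 CPM and Pdlim5 from 45.6 ± 1.48 to 249 ± 8.29 CPM. The actin crosslinkers Actn1 and Flna, singled out after their values were seen, also fell, Actn1 from 405 ± 9.92 to 126 ± 20.9 CPM and Flna from 798 ± 24.5 to 269 ± 20.0 CPM.

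Genes that signal downstream of integrins were higher for 11 and lower for 5 of 25 tested, which is 44% and 20% where 32% and 30.3% of all genes were called. The 4 named by size of change include 3 that fell. The tyrosine kinase gene Src held 65.2, 55.9 and 60.6 CPM in the knockout and 7.63, 8.07 and 7.81 CPM in the control, a rise of 7.72-fold (log2 difference 2.95, SE 0.09, edgeR adjusted p = 8.47e-11). Pak1, a kinase that Rac and Cdc42 activate, fell from 2.24 ± 0.151 to 0.0800 ± 0.0700 CPM, Elmo1, part of a Rac exchange factor, from 30.7 ± 3.55 to 5.64 ± 0.241 CPM, and Nedd9, a relative of Bcar1, from 23.5 ± 2.46 to 9.72 ± 2.81 CPM.

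Of the ligand genes, 8 of 18 tested were higher and 8 lower, 44.4% each, against 32% and 30.3% of all genes. The collagen IV genes Col4a1 and Col4a2 both rose, Col4a1 from 6.84 ± 0.633 to 385 ± 45.2 CPM and Col4a2 from 2.26 ± 0.220 to 87.9 ± 7.28 CPM. Vcam1, a ligand of Itga4 receptors, held 0.414 ± 0.0971 CPM in the control and 9.05 ± 0.437 in the knockout. Thbs1 had 1 read over the knockout group and 248 over the control, a ratio of 294 with an exact 95% interval of 52.2 to 11643 for counting error only. That read was in knockout replicate 3, so without this library the knockout had 0 reads and the ratio has no finite value. Fn1, Spp1 and Npnt were singled out after their values were seen, as ligands of Itga5, Itga4 and Itga8. Fn1, fibronectin, held 341, 357 and 424 CPM in the knockout and 873, 858 and 958 CPM in the control (log2 difference -1.26, SE 0.09, edgeR adjusted p = 2.82e-07). Spp1, osteopontin, rose from 15.5 ± 0.639 to 54.5 ± 15.6 CPM, and Npnt, nephronectin, from 7.20 ± 0.956 to 57.7 ± 7.45 CPM.

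Genes listed as switching integrins on or off were called in 7 of 15 tested, 5 higher and 2 lower, against 62.3% of all genes called in either direction. They included the tetraspanin genes Cd82, from 1.30 ± 0.251 to 3.37 ± 0.985 CPM, and Cd81, from 174 ± 4.55 to 263 ± 21.3 CPM, both higher. The list also held Filip1l, which fell from 4.19 ± 0.520 to 2.26 ± 0.167 CPM. In integrin traffic, 5 of 14 were higher (35.7%) and 3 lower (21.4%), a total of 57.1% called that is near the share of all genes. Rab11fip1, which carries recycling vesicles, fell from 5.76 ± 0.660 to 0.0531 ± 0.0520 CPM, Numb, an endocytic adaptor, from 25.7 ± 0.559 to 13.9 ± 0.861 CPM (log2 difference -0.89, and -0.33 with the local median removed) and Gga3 from 68.1 ± 8.97 to 43.2 ± 6.52 CPM, whereas Asap1, an Arf regulator, rose from 38.2 ± 1.52 to 90.3 ± 11.7 CPM.

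Each member was also compared with its surroundings on the chromosome. The median fold change of up to 25 tested genes on each side was removed, and of fewer genes where a chromosome ended. With it removed, 19 members were still called lower but 3 instead of 6 higher. Itga4, Itgb8 and Parvb kept their rise, at 1.55, 1.90 and 0.46, while Itga6, Itgav and Tln2 did not pass. Itgb1 left the lower group and Tns3 joined it, and the falls of Fermt2, Tln1, Bcar1 and Itgb2 were more than 1.5 times smaller on the log2 scale. Vcl, Zyx, Itga5 and Itgb5 stayed between -1.63 and -1.17.

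**Figure D4:**
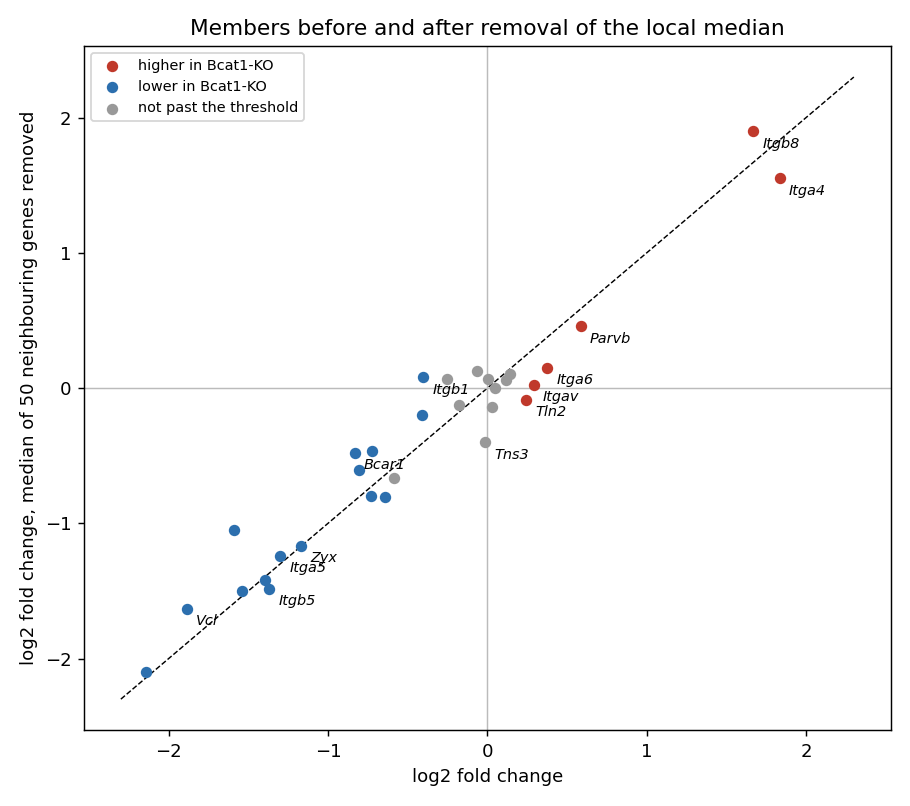
Log2 fold change of 31 tested members as measured (x axis) against the value with the median of up to 50 neighbouring genes removed (y axis). The dashed line marks equality. The 4 members below -2.2 are not drawn. Itgb1 moves from -0.40 to 0.08 and Itgav from 0.29 to 0.02, whereas Zyx lies on the line at -1.17.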

How the data were processed

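Stranded mRNA libraries of 3 Bcat1-KO and 3 control samples were sequenced, per the labels' protocols. The submitters' processing notes name STAR 2.5.3a, featureCounts and the mm10 build, and for the annotation release nothing is given in the sources used. The deposited reverse-strand read counts, 96.4% to 96.5% of stranded reads, were tested, and the authors' TPM (scaled over all genes of a library, and equal to TPM recomputed from those counts) was used for levels per length. A second deposited TPM column, whose sum exceeds the TPM total and which is treated as a score, was not used. edgeR 4.0.16's expression filter left 14020 of 49585 genes and removed 0.0511% of counts. The main test was edgeR's quasi-likelihood fit over all tested genes (TMM scaling, no covariate, Benjamini-Hochberg adjustment at 0.05). The SE of a fold change is its size over the root of the F statistic. Promoters came from RefSeq (GRCm38.p6), matched by symbol. Replicate pairs differed beyond counting noise (chi-square per gene 3.78 to 30.5, with replicate 1 of each group apart from the other two), so each library counted once. Alternatives used DESeq2 1.42.0, limma 3.58.1 and others given below, with R 4.3.3 and Python 3.11.15.

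The members and lists were chosen with earlier results of these data known. Named with values in each library are the members past the threshold with the largest change and a mean log2 CPM of at least 0 (up to 16) and the 6 with the highest TPM, and up to 4 called genes of each companion list. Other members were added for completeness.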

Additional observations from a re-analysis of the deposited data

How the results depend on the processing

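Of the 25 members called, 23 kept their direction in all 17 alternatives and 15 kept both direction and call. In the test against a 1.5-fold threshold 15 members passed, 2 of them higher, and 38 companion genes passed, 16 higher and 22 lower. That test called 11.2% of all 14020 tested genes higher and 10.6% lower. For the other settings no share of all genes was taken, so their counts have no such background. After removal of the local median 3 members were higher. Without the filter on low counts 27 members passed, 7 higher and 20 lower. Of the higher ones 3 changed at least 2-fold, against 2 in the main test. On log2(TPM + 1), a scale that understates low genes, 7 members changed at least 2-fold, 5 of them lower. Leaving out 1 replicate at a time left 23 to 26 members called (5 to 6 higher, 18 to 20 lower), 14 to 15 with a change of at least 2-fold (2 higher, 12 to 13 lower) and 63 to 77 companion genes (29 to 34 higher, 34 to 43 lower).

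Among members whose sign turned, Itgb1 and Tln2 had been called and the others had not, and the cause was not tested. After removal of the local median Itgb1 was 0.0794, Tln2 -0.0865, Lims1 0.126, Itga7 0.0700 and Ptk2 -0.140. Pxn was -0.00985 with relative log expression scaling, -0.00696 with upper quartile scaling, -0.00424 without the filter and -0.00594 with DESeq2. Tns3 was 0.0328 on log2(TPM + 1) and 0.0334 on log2(TPM + 0.1). With 1 replicate left out at a time, Pxn ranged from -0.0976 to 0.0383, Tns3 from -0.128 to 0.0437, Itga1 from -0.0674 to 0.115 and Ptk2 from -0.0107 to 0.0382. Differences in the shares of Itga4, Itga5, Itga6, Itgav, Itgb1, Itgb5 and Itgb8 moved by less than 1 SD in each of their 8 alternatives (1 replicate left out, counts per length, leukocyte chains left out). This outcome was fixed in advance and does not measure stability. Leaving out 1 of 3 libraries cannot shift a difference by 1 SD pooled over the groups. Counts per length give the same shares as TPM, and leukocyte chains were a small part of either sum.

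The deviations of same-numbered libraries from their group means were weakly correlated (-0.05, -0.07 and 0.16), and not every library correlated best with its own number. Deviations from a mean of 3 libraries constrain each other, so these correlations cannot show whether the numbers pair the samples. With the replicate number as a block 26 members passed, 6 higher and 20 lower, and 71 companion genes, and Tns1 passed as lower (-0.18, adjusted p = 0.0228). Members under about 1 CPM rest on few reads, and a change there is not detectable below the counting error.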
